A study of Homo sapiens with 16 samples.

Results

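The 45 genes described here encode the cornified envelope and the proteins that keratinocytes make as they differentiate. They were taken as a named list from the 20046 genes that had a probe with 1 gene symbol on an Illumina bead array, and the list was drawn up with earlier results of these data known. All arrays carried total RNA of ME180, a human cervical epidermoid carcinoma line that was established from an omental metastasis and stands here as a single line, grown in IMDM with 10% fetal bovine serum. Of the 16 arrays, 4 came from cells given the DMSO vehicle, with no time in the labels. The other 12 came from cells given all-trans retinoic acid (ATRA) at 10 µM, 4 each for 1 h, 3 h and 6 h. The labels do not say that the replicates of a group were separate cultures, so every p-value below measures the spread between these arrays, which may be technical.

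The cornified envelope is a shell of cross-linked protein that replaces the plasma membrane of a keratinocyte at the end of its life. Transglutaminases join small proline-rich proteins, loricrin, involucrin and other precursors to a scaffold of periplakin and envoplakin near the desmosomes, while kallikrein-related peptidases and their inhibitors control the shedding of dead cells. Retinoic acid acts through nuclear receptors on DNA and is known for holding back this program in cultured keratinocytes, whereas activator protein 1 (AP-1), a dimer of FOS and JUN family proteins, switches on several of its genes. The comparison of ATRA with DMSO asks how far these transcripts moved within the first hours.

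The stretch of 250 bases before the start of transcription is printed for 4 of the genes, because SPRR1A and SPRR1B led one pattern among the arrays and SCEL and KLK6 another, and because FOS and FOSB, which encode parts of AP-1, were themselves measured. The sequences are RefSeq's on GRCh38.p14, each read 5′ to 3′ on the strand of the gene. Capitals mark TGANTCA with any base at N, a loose form of the sequence that AP-1 recognises. As a pattern it reads the same on both strands. The windows are chr1:152983831-152984080, plus strand, for SPRR1A; chr1:153030953-153031202, plus strand, for SPRR1B; chr13:77535456-77535705, plus strand, for SCEL; and chr19:50969592-50969841, minus strand, for KLK6.
SPRR1A: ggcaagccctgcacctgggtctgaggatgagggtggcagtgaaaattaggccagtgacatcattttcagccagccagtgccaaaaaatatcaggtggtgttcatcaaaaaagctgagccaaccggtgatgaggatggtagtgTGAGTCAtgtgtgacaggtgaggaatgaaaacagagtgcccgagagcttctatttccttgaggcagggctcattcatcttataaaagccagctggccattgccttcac
SPRR1B: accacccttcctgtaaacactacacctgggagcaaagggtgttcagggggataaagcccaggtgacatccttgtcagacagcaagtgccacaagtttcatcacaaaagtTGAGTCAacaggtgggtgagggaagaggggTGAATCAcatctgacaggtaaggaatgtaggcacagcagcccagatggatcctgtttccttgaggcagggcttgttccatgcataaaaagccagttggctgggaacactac
SCEL: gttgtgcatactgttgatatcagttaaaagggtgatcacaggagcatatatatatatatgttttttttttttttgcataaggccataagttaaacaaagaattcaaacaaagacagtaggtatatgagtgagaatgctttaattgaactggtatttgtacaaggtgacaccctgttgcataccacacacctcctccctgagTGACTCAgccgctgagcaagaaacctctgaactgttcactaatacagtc
KLK6: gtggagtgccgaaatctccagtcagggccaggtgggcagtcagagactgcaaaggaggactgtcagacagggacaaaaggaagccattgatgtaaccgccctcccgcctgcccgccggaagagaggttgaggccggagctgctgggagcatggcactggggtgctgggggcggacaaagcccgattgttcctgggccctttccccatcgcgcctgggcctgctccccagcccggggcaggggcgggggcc

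SPRR1A had 1 match, which began 108 bases before the start, and SPRR1B had 2, at 141 and 111 bases. SCEL had 1 match at 49 bases, and the KLK6 window held none. Of the 36 listed genes with a promoter entry, 12 had at least 1 match, while 6.57% of all 35097 promoters in the table had one. AGGTCA, the core sequence that retinoic acid receptors recognise, was searched on both strands and was found in 5 of the 36 genes, against 12.1% of all promoters. TATAAA, searched likewise, was found in 11 of the 36, against 10.7%. Some genes have several promoters in the table. A gene was counted when any of its promoters had a match, whereas the percentages are of single promoters. The figures are therefore not alike, and several promoters can raise the count of genes. These are counts of letters in short windows and say nothing of binding.

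All 45 genes had a probe, and 37 reached a log2 intensity of 6 in at least 4 of the 16 arrays, the level required for testing. A log2 value of 6 is a filter and not a detection call. By role, 11 of 13 structural precursors and scaffold proteins reached it, both transglutaminases, all 7 kallikrein-related peptidases, all 6 S100 proteins, 3 of 6 protease inhibitors, 5 of 6 desmosome and adhesion proteins, 2 of 3 secreted, surface and transport proteins, and 1 of 2 lipid enzymes. Of the 37, 32 were at or above 6 in every array. IVL (involucrin), SERPINB1, SERPINB3, SERPINB4, CDSN (corneodesmosin) and RHCG (an ammonium transporter) stayed below 6 in all 16 arrays. LORICRIN, the major envelope protein of the epidermis and listed under its older symbol LOR, ranged from 4.65 to 6.43, and ALOX12B, a lipoxygenase of the epidermal lipid barrier, from 4.58 to 6.68, each with 3 arrays at or above 6. Just inside the requirement stood SBSN, S100A7 and S100A12, with 4 arrays each. The listed genes lie on 12 chromosomes, with 14 on chromosome 1, 11 on chromosome 19 and 6 on chromosome 18. Probes of the SPRR, S100 and SERPINB families may not separate near-identical relatives, which was not tested.

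Markers of basal and squamous keratinocytes were present throughout, since all 7 with a probe, KRT5 and KRT14 among them, were above 6 in every array. Of 8 simple and glandular epithelial markers, KRT8, KRT18, KRT19 and MUC1 were also above 6 in every array. CDX2 reached it in 6 arrays and KRT7 in 1, and MUC16 and VIL1 were below 6 in all. Of 7 fibroblast markers 5 were below 6 in all arrays, COL1A1 reached it in 13 and DCN in 4. Of 6 leukocyte markers with a probe PTPRC, CD3E and ITGAM were below 6 in all arrays, CD14 reached it in 2, HBB in 15 and CD68 in 16. Of 3 endothelial markers PECAM1 was below 6 in all arrays, CDH5 reached it in 6 and VWF in 13. In the 4 arrays numbered replicate 1 the deposited values stood 1 row out of place for 77.6% of the rows and were moved back before any comparison. After the move these arrays still stood apart, and 6590 of 12467 genes and probes, 52.9%, differed between them and the rest in limma's fit.

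The arrays labelled 6 h replicate 2 and 6 h replicate 4 went against their label. CYP26A1, which encodes the retinoic acid hydroxylase and is a direct target of retinoic acid receptors, was at 12.95 and 13.13 in the other 6 h arrays but at 4.53 and 5.45 in these. In DMSO it was at 7.26, 8.58, 8.83 and 7.79, and at 3 h at 12.99, 14.02, 12.18 and 13.58. DHRS3, a retinal reductase induced by retinoic acid, was at 12.33 and 12.68 in 6 h replicates 1 and 3 and at 9.24 and 10.27 in replicates 2 and 4. The array labelled 1 h replicate 2 had CYP26A1 at 7.51, inside the DMSO range, beside 10.77, 11.81 and 12.14 in the other 1 h arrays. Its FOSB value of 10.41 lay above the DMSO range of 6.00 to 6.37, as did the other 1 h arrays. Changes at 6 h are given over all 4 arrays and then without 6 h replicates 2 and 4, a choice made after the data were seen. This leaves 2 arrays at 6 h, of which 1 is a replicate 1 array, so values with the replicate 1 set as a block stand beside them.

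No listed gene passed the test between any groups when all 16 arrays were used. In limma with Benjamini-Hochberg adjustment over 12467 genes and probes, 0 of the 37 differed at 1 h, where 0.57% of all features did, 0 at 3 h, against 0.521%, and 0 at 6 h, against 0%. The count was also 0 for 3 h against 1 h, against 0.184% of all features, for 6 h against 3 h, against 0%, and for the test across the 4 groups, against 0.69%. At an unadjusted p under 0.05 there were 0, 3 and 2 of the 37 at 1, 3 and 6 h, against 3.85%, 7.64% and 4.4% of all features. The 3 at 3 h were KLK10, KLK6 and S100A2, and the 2 at 6 h were SBSN and SPRR2D. SBSN reached 6 only in ATRA arrays, so it was tested only through the groups where it was high. The median log2 change of the 37 was 0.08 at 1 h, 0.16 at 3 h and −0.08 at 6 h, beside −0.03, −0.04 and −0.01 over all features. Without 6 h replicates 2 and 4 the median at 6 h turned to 0.27, with 22 genes above 0 and 15 below, and with the replicate 1 set as a block it was −0.02, with 17 above and 20 below. Leaving out 1 h replicate 2 as well, the median at 1 h was 0.09, and 0 genes passed there, against 0.602% of all features, or 1.2% with the block. These 3 comparisons share the DMSO arrays.

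The precision for these genes was lower than for most. The standard error of a group difference had a median of 0.43 on the log2 scale over the 37 genes and 0.27 over all features. The 95% interval of the change lay within 1 log2 unit of 0 for 15 of the 37 genes at 1 h, 13 at 3 h and 13 at 6 h, or 9 at 6 h without 6 h replicates 2 and 4. For the remaining genes a change of 2-fold in one direction or both was within the interval. KLK7, a stratum corneum protease, had the narrowest standard error, 0.13, and its interval at 3 h ran from −0.30 to 0.26. S100A7 had the widest, 0.92. With the replicate 1 set as a block the median standard error was 0.26, beside 0.19 over all features. The interval then lay within 1 log2 unit of 0 for 24 genes at 1 h, 22 at 3 h and 21 at 6 h. Without 6 h replicates 2 and 4 it did so for 16 at 6 h with the block.

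**Figure D1:**
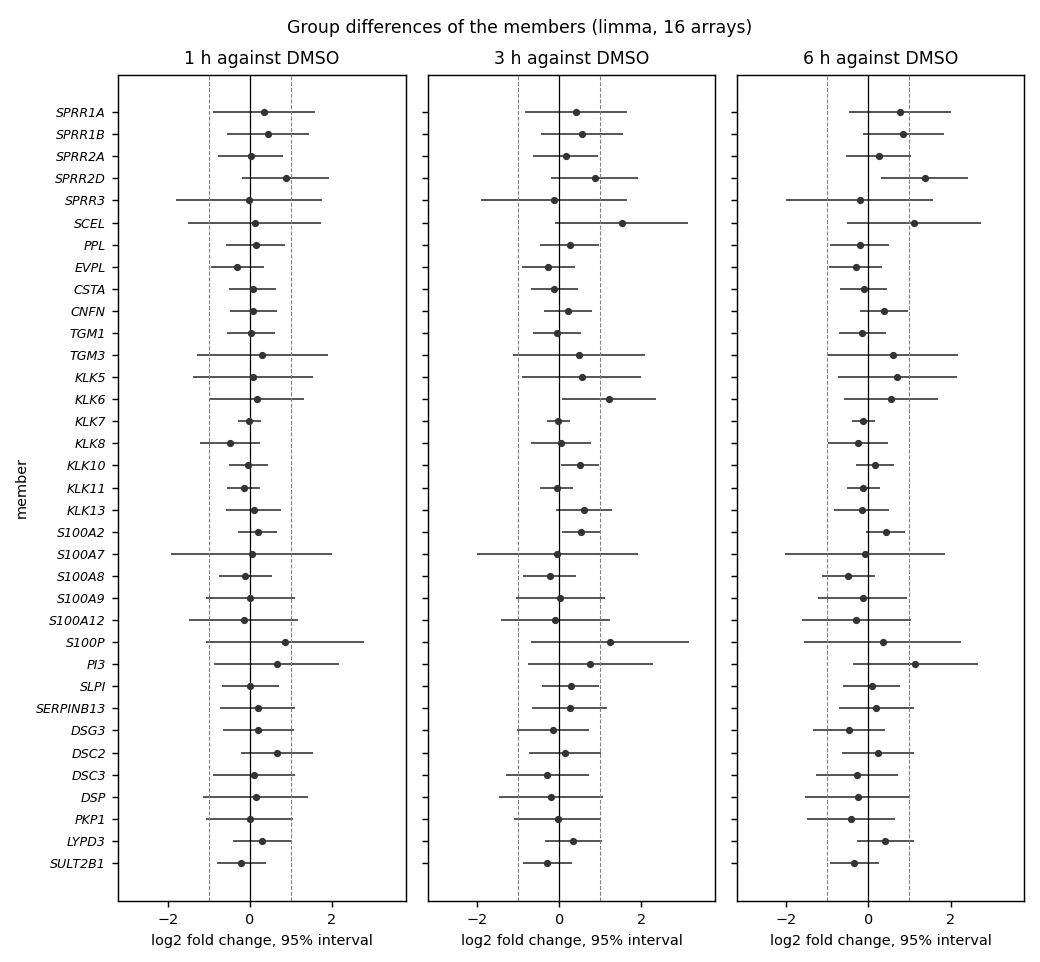
Log2 fold change of the listed genes against DMSO at 1, 3 and 6 h of ATRA, with the 95% interval from limma over 16 arrays (points and bars), and dashed lines 1 log2 unit either side of 0. SBSN and FLG are left out because all arrays of one group lay below log2 6. Few intervals exclude 0 and none passed adjustment over all features.

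Levels of many of the genes differed between the replicate 1 arrays and the others. S100A7 and S100A12 had reached the level for testing through the replicate 1 arrays alone, so the count was taken over the 34 genes whose mean over the 16 arrays was at least 6, a rule chosen after the data were seen, which also left out SBSN. Of these, 22 differed (64.7%), 15 higher and 7 lower in the replicate 1 arrays, where 52.2% of the 11341 features with such a mean differed, 22% higher and 30.2% lower. The median absolute difference was 0.76 on the log2 scale over the 34 genes and 0.42 over those features. S100A7 (psoriasin, an antimicrobial S100 protein, chromosome 1) was at 8.03, 7.98, 7.86 and 8.03 in the replicate 1 arrays of DMSO, 1 h, 3 h and 6 h. In the other 12 arrays it stayed between 4.57 and 5.72, below the level of 6, so no difference is given for it. SPRR3, a precursor typical of mucosal epithelia, was 2.56 higher on the log2 scale (SE 0.17, adjusted p = 5.02e-08 in limma), with 12.49, 12.77, 12.80 and 12.53 in replicate 1 and 9.59 to 10.79 elsewhere. TGM3, an epidermal transglutaminase, was 2.13 higher (SE 0.27), and S100A9, a calprotectin subunit, 1.51 higher (SE 0.14).

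Of the 5 desmosome genes tested, DSP and PKP1 were lower in the replicate 1 arrays and DSC2 (desmocollin 2) was higher, by 0.77 (SE 0.27), while DSC3 and DSG3 did not pass. DSP, which encodes the plaque protein desmoplakin, differed by −1.51 (SE 0.30), PKP1 (plakophilin 1) by −1.44 (SE 0.17) and PPL (periplakin) by −0.96 (SE 0.11). DSP in the replicate 1 arrays was at 8.94, 9.55, 9.06 and 8.41, below all 12 other arrays, which lay between 9.82 and 11.61. KLK5, a protease of the stratum corneum, differed by −1.30 (SE 0.45). Each replicate 1 array belongs to a different treatment group, and the labels give no slide or scan date, so what sets these arrays apart was not tested.

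**Figure D2:**
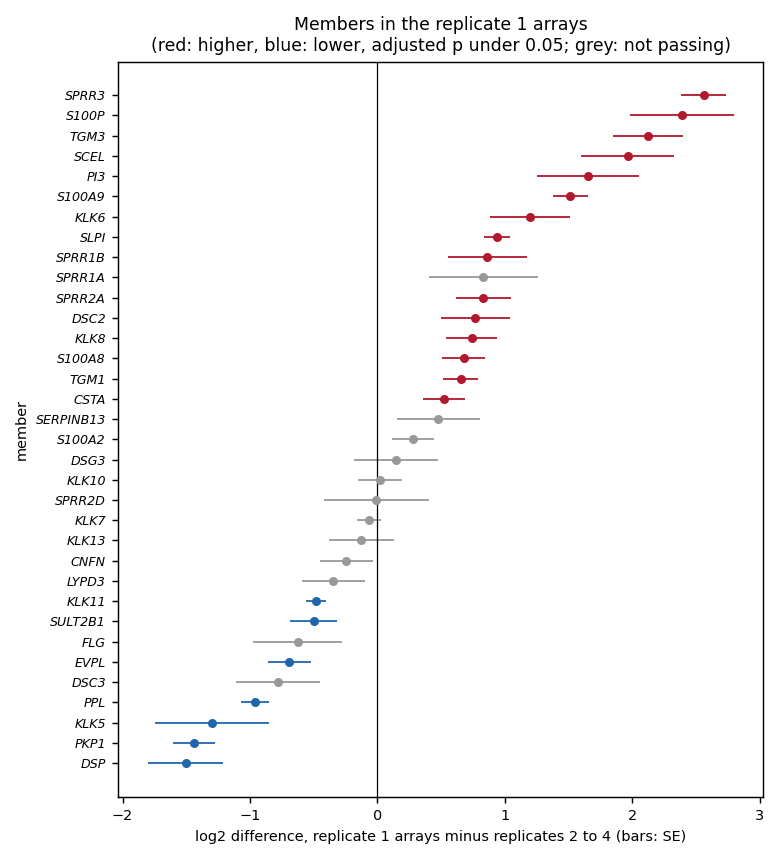
Difference in log2 intensity between the 4 replicate 1 arrays and the other 12, with groups in the limma model (points) and its standard error (bars), for the 34 genes with a mean of at least 6 over the 16 arrays. Red and blue genes passed at an adjusted p under 0.05, grey genes did not. SPRR3 and S100P stand at the upper end and DSP and PKP1 at the lower.

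With these arrays as a block in the model, 0 of the 37 genes passed at 1 h (0.938% of all features), 0 at 3 h (3.08%) and 0 at 6 h (0%). The lowest adjusted p of a listed gene was then 0.0856, for SCEL at 3 h. Without the replicate 1 arrays the counts were again 0, against 0.61%, 0.754% and 0% of all features, with 1, 7 and 9 genes at an unadjusted p under 0.05, against 4.84%, 11.4% and 8.48%. At an unadjusted p under 0.05 the block gave 0, 6 and 6 genes at 1, 3 and 6 h, against 8.21%, 14.9% and 11.4% of all features.

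The precursors and scaffold proteins held the largest change at 3 h, that of SCEL. SPRR1A, a small proline-rich precursor on chromosome 1, was at 12.01, 10.41, 10.27 and 10.85 in DMSO replicates 1 to 4, and at 12.05, 12.27, 10.33 and 10.29 at 1 h. It was at 11.996, 10.36, 12.41 and 10.46 at 3 h and at 11.52, 12.39, 11.86 and 10.84 at 6 h. Outside replicate 1 it was therefore high in 1 h replicate 2, 3 h replicate 3 and the arrays labelled 6 h replicates 2 and 3, and the groups overlapped. The change at 6 h was 0.77 (SE 0.58, 95% interval −0.48 to 2.01), 0.80 without 6 h replicates 2 and 4, and 0.58 with the block as well.

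SPRR1B had its 4 highest values of replicates 2 to 4 in those same arrays, with 10.64, 10.21, 10.74 and 10.20 beside at most 9.61 in the other 8. CNFN (cornifelin) and SBSN shared all 4 arrays as well. SBSN reached 6 only in these 4 arrays, so its match was fixed by the filter. A further 7 genes shared 3 of the 4, namely SPRR2A, SPRR2D, CSTA, TGM3, PI3, DSC2 and LYPD3. How many of all features shared these arrays was not counted. KRTDAP and DSG1, made by suprabasal keratinocytes and not among the 45, were high there too. KRTDAP was at 8.35, 8.20, 8.38 and 7.88 in the 4 arrays and at 5.54 to 6.20 in the other 8 of replicates 2 to 4. DSG1 was at 7.65, 7.17, 7.93 and 6.64 there and at 4.59 to 5.61 in the others. Of the 6 suprabasal markers, KRT2 and DSC1 were below 6 in all arrays. KRT1 reached 6 in 8 arrays, ranging from 4.48 to 7.45, and KRT10 in all 16, from 12.38 to 13.82. Whether KRT1 and KRT10 were high in the same 4 arrays was not tested. The summed level of the 6 markers ran from 12.73 to 13.46 in DMSO, 12.81 to 13.70 at 1 h, 12.76 to 13.71 at 3 h and 12.45 to 13.90 at 6 h on the log2 scale. DCN, a fibroblast marker, was at 6.44, 6.26, 6.96 and 6.18 in the 4 arrays and at 4.65 to 5.46 in the other 12. Like SBSN, DSG1 and DCN reached 6 only in these 4 arrays, so no difference is read from them. The summed level of the 7 fibroblast markers ran from 7.70 to 8.001 in DMSO, 7.81 to 8.41 at 1 h, 7.78 to 8.21 at 3 h and 7.67 to 8.38 at 6 h, with 5 of them below 6 throughout, and their part in the pattern was not tested. These genes were singled out after their values were seen, so the shared arrays are a description. Fewer differentiating cells and less RNA per cell cannot be told apart in such bulk RNA.

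SPRR2D, another small proline-rich precursor of the same chromosome, was at 8.49, 6.91, 6.94 and 7.52 in DMSO and at 8.33, 9.39, 7.93 and 7.69 at 1 h. It was at 8.33, 7.67, 9.54 and 7.77 at 3 h and at 7.78, 9.30, 8.88 and 9.37 at 6 h. In replicates 2 to 4 each ATRA array stood above the DMSO arrays, while the replicate 1 array of DMSO was the highest of its set. The change at 6 h was 1.37 (SE 0.50, 95% interval 0.30 to 2.43), with an adjusted p of 1.00 in limma. Without 6 h replicates 2 and 4 it was 0.86 (SE 0.61) with an interval of −0.46 to 2.19, which includes 0, and with the block as well 0.82 (SE 0.62).

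**Figure D3:**
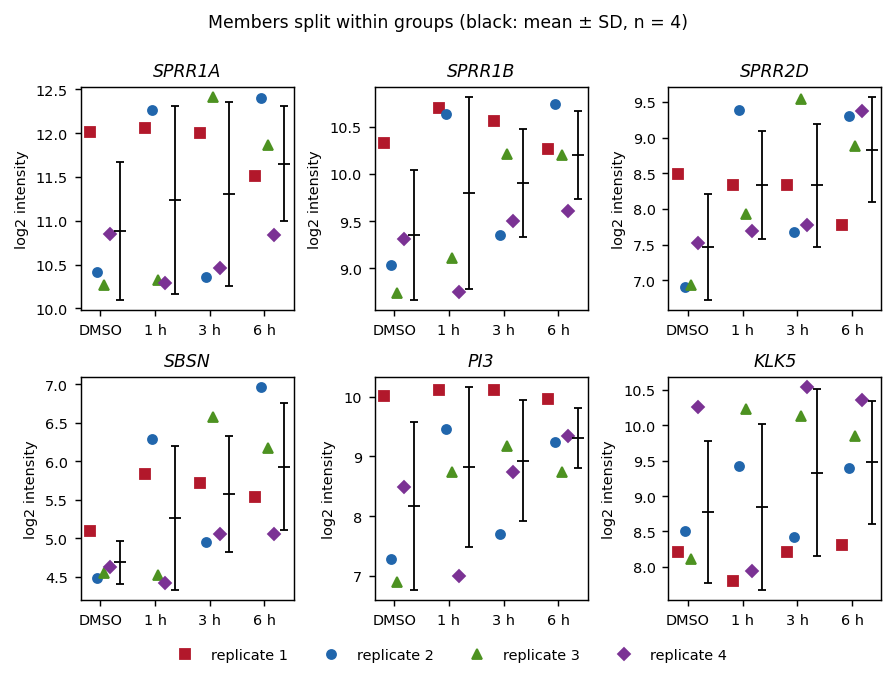
Log2 intensity by array of 6 genes that split within groups, by treatment (horizontal axis) and replicate number (symbols), with the mean and SD of the 4 arrays of each group in black. SPRR1A, SPRR1B and SBSN are high in 1 h replicate 2, 3 h replicate 3 and the arrays labelled 6 h replicates 2 and 3, and KLK5 takes another set of arrays.

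FLG, the precursor of filaggrin, was at 5.31, 6.87, 6.86 and 6.52 in DMSO, and all 4 arrays labelled 6 h were below 6, at 5.61, 5.73, 4.96 and 5.78. No fold is given for it at 6 h. The other precursors stayed within narrower limits. PPL ranged from 9.65 to 11.24 over the 16 arrays, EVPL (envoplakin) from 7.75 to 9.20, CSTA (the protease inhibitor cystatin A) from 9.22 to 10.48, SPRR2A from 8.62 to 10.22 and CNFN from 9.12 to 10.31.

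SCEL, which encodes sciellin, a protein cross-linked into the envelope, is on chromosome 13 and had the largest change at 3 h among the 37 genes. It was at 8.76, 6.41, 6.85 and 6.87 in DMSO and at 8.82, 7.08, 6.41 and 7.03 at 1 h. At 3 h it was at 9.76, 9.14, 7.90 and 8.16, and in the arrays labelled 6 h at 10.18, 6.68, 9.30 and 7.14. Within each of the 4 replicate numbers the 3 h array was above the DMSO array, but the DMSO array of replicate 1 exceeded 2 of the 3 h arrays. At 6 h the high values were those of replicates 1 and 3. Replicates 2 and 4, the arrays that went against their label, lay in the range of the 4 DMSO arrays. Replicate 4, at 7.14, was above DMSO replicates 2 to 4 and inside that range only through DMSO replicate 1. The mean was 7.22 ± 1.05 (SD, n = 4) in DMSO and 8.74 ± 0.87 at 3 h, a change of 1.52 (SE 0.76, 95% interval −0.11 to 3.15, adjusted p = 0.718 in limma). A second probe of SCEL gave 1.57 at 3 h.

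KLK6, a kallikrein-related peptidase on chromosome 19, followed the same arrays. It was at 9.01, 7.82, 7.51 and 7.93 in DMSO, at 8.98, 7.49, 8.33 and 8.15 at 1 h, at 9.86, 8.99, 8.66 and 9.63 at 3 h, and at 9.95, 7.11, 9.43 and 8.01 at 6 h. The 4 highest values of replicates 2 to 4 were those of the 3 h arrays and of 6 h replicate 3, as for SCEL. The change was 1.22 at 3 h (SE 0.54, 95% interval 0.07 to 2.37, adjusted p = 0.575). SLPI, a secreted inhibitor of serine proteases, had its 4 highest values in those same arrays, and KLK10, KLK13, S100A2 and S100P had 3 of their 4 there. The share of all features with these arrays on top was not counted.

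Leaving out the arrays labelled 6 h replicates 2 and 4, a choice made after seeing the data, with the replicate 1 set as a block, 3 of the 37 genes passed at 3 h, where 5.05% of all features did. They were SCEL at 1.52 (SE 0.28, adjusted p = 0.00787), KLK6 at 1.22 (SE 0.23, adjusted p = 0.00869) and S100A2 at 0.54 (SE 0.14, adjusted p = 0.0489). At 6 h, with the 2 remaining arrays, SCEL at 2.11 (SE 0.35, adjusted p = 0.0113) and KLK6 at 1.39 (SE 0.29, adjusted p = 0.0283) passed, and 2.13% of all features. At 1 h 0 passed, against 1.28%. Both also passed across the groups, as 5.17% of features did, and for 3 h against 1 h, where 1.92% did, at 1.41 (adjusted p = 0.0251) for SCEL and 1.05 (adjusted p = 0.0372) for KLK6. Leaving out these arrays without the block gave 0 genes at 1, 3 and 6 h, against 0.61%, 0.93% and 0.249% of all features, with 5 at 3 h and 3 at 6 h at an unadjusted p under 0.05, against 8.74% and 8.25%. Leaving out 1 h replicate 2 as well, with the block, SCEL and KLK6 passed at 3 h (4.67% of all features) and at 6 h (1.75%), and across the groups (4.23%), and 0 genes for 3 h against 1 h (1.08%). Over 33 alternative settings the change of SCEL at 3 h ran from 1.18 to 2.03 and its adjusted p from 0.00787 to 1.00. For KLK6 the change ran from 1.02 to 1.53 and the adjusted p from 0.00598 to 1.00, and for S100A2 from 0.46 to 0.68 and from 0.0487 to 1.00. CDH5, an endothelial marker, was at 6.90, 8.29, 4.90 and 8.04 at 3 h and at 4.34 to 4.54 in DMSO. VWF, another, was at 7.16, 7.21, 6.89 and 6.88 at 3 h beside 5.93 to 7.06 in DMSO, and at 7.48, 6.19, 7.65 and 5.99 at 6 h. At 3 h the summed level of the 3 endothelial markers ran from 7.46 to 8.91 beside 6.74 to 7.49 in DMSO. PECAM1 was below 6 in every array, and the part of these markers in the change was not tested.

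**Figure D4:**
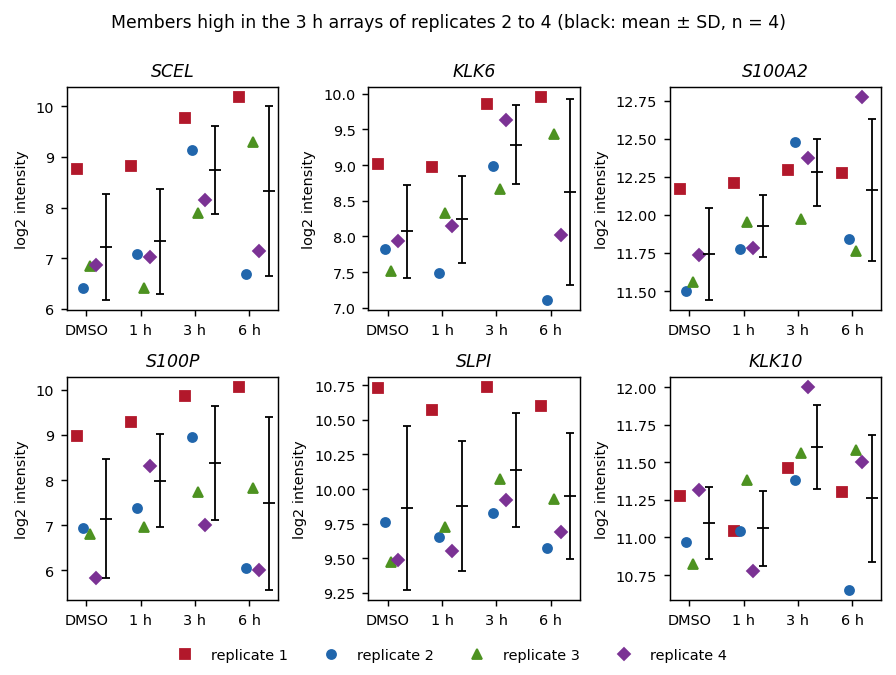
Log2 intensity by array of 6 genes that were high in the 3 h arrays of replicates 2 to 4, by treatment (horizontal axis) and replicate number (symbols), with the mean and SD of the 4 arrays of each group in black. SCEL and KLK6 are high at 3 h and in 6 h replicates 1 and 3, and low in the arrays labelled 6 h replicates 2 and 4.

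Counted by whether groups overlapped, 1 gene, KLK10, had every 3 h array above every DMSO array, where 3.02% of all features did, and none had them all below, against 2.3%. At 1 h none lay above or below, against 1.68% each way, and at 6 h none, against 1.03% and 0.955%. Without the arrays labelled 1 h replicate 2 and 6 h replicates 2 and 4, none lay above or below at 1 h, against 2.29% and 2.37%. At 6 h, with 2 arrays, KLK6, SBSN, SCEL and SERPINB13 then lay above, against 8.91%, and DSG3 and EVPL below, against 8.25%. KLK10 was still the gene with every 3 h array above every 1 h array, against 2.32%, and 0 lay below, against 1.95%. In replicates 2 to 4 alone, 10 genes lay above DMSO in every 3 h array, against 8.28% of all features, and 0 lay below, against 10.9%. The 10 were KLK10, KLK6, S100A2, S100P, SBSN, SCEL, SLPI, SPRR1B, SPRR2D and TGM3. SBSN, wherever it is counted here, passed the filter only through ATRA arrays and was below 6 in every DMSO array. At 1 h, in replicates 2 to 4, 4 genes lay above, against 5.84%, and 1 below, against 7.5%. The 1 below was S100A12, which was under 6 in every array of replicates 2 to 4, so no difference is read from it. At 6 h, 8 lay above, against 5.61%, and FLG and S100A8 below, against 7.39%. For 3 h against 1 h, 6 genes lay above, against 6.53%, and 0 below, against 6.32%. Without 1 h replicate 2 these became 5 above and 1 below, again S100A12, at 1 h, against 8.86% and 10.6%. For 3 h against 1 h they became 10 above and 0 below, against 8.98% and 10.1%. At 6 h only 1 array of replicates 2 to 4 would remain, and no count is given. These counts carry no test.

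Cross-linking enzymes showed no change that passed. TGM1, the membrane-bound transglutaminase of keratinocytes on chromosome 14, was at 11.78, 11.05, 10.80 and 10.96 in DMSO and at 11.74, 11.21, 10.92 and 10.83 at 1 h. It was at 11.46, 10.61, 11.41 and 10.90 at 3 h and at 11.40, 10.77, 10.73 and 11.11 at 6 h. The groups overlapped fully, and the interval at 3 h ran from −0.63 to 0.52. TGM3, on chromosome 20, was at 10.56, 7.98, 7.37 and 7.97 in DMSO, at 10.33, 9.18, 7.77 and 7.82 at 1 h, at 10.55, 8.13, 9.05 and 8.10 at 3 h, and at 10.20, 9.17, 8.42 and 8.44 at 6 h. The replicate 1 arrays were highest in each group, and the interval at 3 h, −1.11 to 2.09, was wide.

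The kallikrein-related peptidases had a median change of 0.51 at 3 h, with 5 of 7 above 0, and none passed over all 16 arrays. KLK10 was at 11.28, 10.97, 10.83 and 11.31 in DMSO and at 11.05, 11.05, 11.38 and 10.77 at 1 h. It was at 11.46, 11.38, 11.56 and 12.002 at 3 h and at 11.30, 10.65, 11.58 and 11.50 at 6 h. Its 3 h values cleared both the DMSO and the 1 h arrays by a small margin (1.84% of features had all 3 h above all 1 h arrays, and 1.37% below), with a change of 0.51 (SE 0.22, 95% interval 0.04 to 0.97, adjusted p = 0.559 in limma).

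KLK5 was at 8.21, 8.51, 8.11 and 10.26 in DMSO, at 7.81, 9.42, 10.23 and 7.94 at 1 h, at 8.21, 8.42, 10.13 and 10.54 at 3 h, and at 8.31, 9.40, 9.85 and 10.35 at 6 h. High and low arrays occurred in every group, and its 4 highest arrays of replicates 2 to 4 shared 0 with those of SPRR1A and 1 with those of SCEL. KLK11 was steady, at 13.11, 13.65, 13.57 and 13.51 in DMSO, 12.97, 13.32, 13.46 and 13.52 at 1 h, 13.05, 13.50, 13.53 and 13.51 at 3 h, and 12.94, 13.49, 13.57 and 13.36 at 6 h. Its interval at 3 h, −0.47 to 0.34, lay within 1 log2 unit of 0, and the replicate 1 array was lowest in each group. KLK8 ranged from 8.13 to 9.93 and KLK13 from 7.72 to 9.51 over the 16 arrays.

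Among the S100 calcium-binding proteins, S100A2, found in basal keratinocytes, was at 12.17, 11.50, 11.56 and 11.74 in DMSO and at 12.21, 11.77, 11.95 and 11.78 at 1 h. It was at 12.29, 12.48, 11.97 and 12.37 at 3 h and at 12.27, 11.84, 11.76 and 12.77 at 6 h. Outside replicate 1 every 3 h array was above every DMSO and 1 h array. The change at 3 h was 0.54 (SE 0.23, 95% interval 0.06 to 1.02, adjusted p = 0.523 in limma). With limma's array weights it was 0.63 and passed, at an adjusted p of 0.0487, where 3.71% of all features did. Under the same weights SPRR2D alone of the 37 genes passed across the groups, against 3.48%.

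S100P was at 8.98, 6.94, 6.81 and 5.84 in DMSO, at 9.28, 7.39, 6.96 and 8.32 at 1 h, at 9.85, 8.94, 7.75 and 6.998 at 3 h, and at 10.06, 6.05, 7.81 and 6.01 at 6 h. As for SCEL, the arrays labelled 6 h replicates 2 and 4 were low, and the interval at 3 h ran from −0.68 to 3.17. S100A8, the partner of S100A9 in calprotectin, was at 13.55, 13.27, 13.32 and 12.76 in DMSO, at 13.68, 12.68, 12.73 and 13.36 at 1 h, at 13.53, 13.37, 12.53 and 12.54 at 3 h, and at 13.34, 12.65, 12.54 and 12.40 at 6 h. Its 6 h arrays of replicates 2 to 4 were below those of DMSO, but the change over 16 arrays, −0.49 (SE 0.30), had an interval of −1.14 to 0.15. It was −0.28 without 6 h replicates 2 and 4 and −0.45 with the block as well. S100A9 ranged from 11.22 to 13.22, with the replicate 1 arrays on top in each group.

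Of the protease inhibitors, PI3 (elafin, an elastase inhibitor that is also cross-linked into the envelope) was at 10.02, 7.29, 6.90 and 8.49 in DMSO, at 10.11, 9.46, 8.73 and 7.01 at 1 h, at 10.12, 7.70, 9.18 and 8.73 at 3 h, and at 9.96, 9.23, 8.73 and 9.34 at 6 h. Outside replicate 1 its DMSO and 6 h values did not overlap, and its change at 6 h was 1.14 (SE 0.72, 95% interval −0.38 to 2.67). Without 6 h replicates 2 and 4 it was 1.17 (SE 0.94), and with the block as well 0.73 (SE 0.63). SLPI was at 10.73, 9.76, 9.47 and 9.49 in DMSO, at 10.57, 9.66, 9.73 and 9.55 at 1 h, at 10.74, 9.83, 10.07 and 9.92 at 3 h, and at 10.60, 9.57, 9.93 and 9.69 at 6 h. Its change at 3 h, 0.28 (SE 0.33), was small beside the offset of the replicate 1 arrays. SERPINB13, a serpin that inhibits cysteine cathepsins, was at 11.51, 11.25, 11.62 and 10.77 in DMSO, at 11.76, 11.60, 10.70 and 11.86 at 1 h, at 12.06, 12.08, 11.56 and 10.47 at 3 h, and at 11.89, 11.57, 12.19 and 10.24 at 6 h, with all groups overlapping.

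Some desmosomal transcripts were high together in another set of arrays. DSC3 (desmocollin 3) was at 10.08, 10.94, 11.29 and 10.88 in DMSO, at 10.51, 11.50, 10.25 and 11.33 at 1 h, at 10.22, 10.80, 11.02 and 10.02 at 3 h, and at 9.58, 12.10, 10.49 and 9.92 at 6 h. DSG3 (desmoglein 3) was at 9.76, 9.65, 9.82 and 9.11 in DMSO, at 9.88, 10.06, 8.98 and 10.25 at 1 h, at 9.93, 9.78, 9.48 and 8.56 at 3 h, and at 8.80, 10.36, 8.97 and 8.32 at 6 h. In replicates 2 to 4 the 4 highest arrays of DSC3, DSG3 and DSP were DMSO replicate 3, 1 h replicates 2 and 4 and the array labelled 6 h replicate 2. Here too the share of all features was not counted. The changes at 6 h were −0.28 for DSC3 (SE 0.47) and −0.47 for DSG3 (SE 0.41, 95% interval −1.34 to 0.40). Without 6 h replicates 2 and 4 they were −0.76 (SE 0.44) and −0.70 (SE 0.40), and with the block as well −0.60 and −0.76. At 6 h the array labelled replicate 2 was the highest of the group for DSC3, DSG3 and DSP.

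LYPD3, a surface protein of the suprabasal layers, was at 10.25, 9.98, 9.67 and 9.82 in DMSO, at 9.96, 10.81, 9.99 and 10.15 at 1 h, at 10.16, 10.01, 10.97 and 9.96 at 3 h, and at 9.38, 10.97, 10.23 and 10.80 at 6 h. SBSN (suprabasin) was below 6 in all DMSO arrays, at 5.09, 4.49, 4.55 and 4.62, so that no fold is given. It reached 6 only in the 4 arrays of replicates 2 to 4 in which SPRR1A was high, at 6.28, 6.57, 6.96 and 6.17, and was at 5.09 to 5.83 in the replicate 1 arrays, where SPRR1A was also high. SULT2B1, the cholesterol sulfotransferase of the epidermis, was at 8.85, 9.44, 9.29 and 8.69 in DMSO, at 8.43, 9.10, 8.91 and 9.01 at 1 h, at 8.38, 8.84, 9.49 and 8.43 at 3 h, and at 8.28, 8.9995, 9.22 and 8.41 at 6 h. Its groups overlapped, and the interval at 3 h, −0.88 to 0.31, lay within 1 log2 unit of 0.

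**Figure D5:**
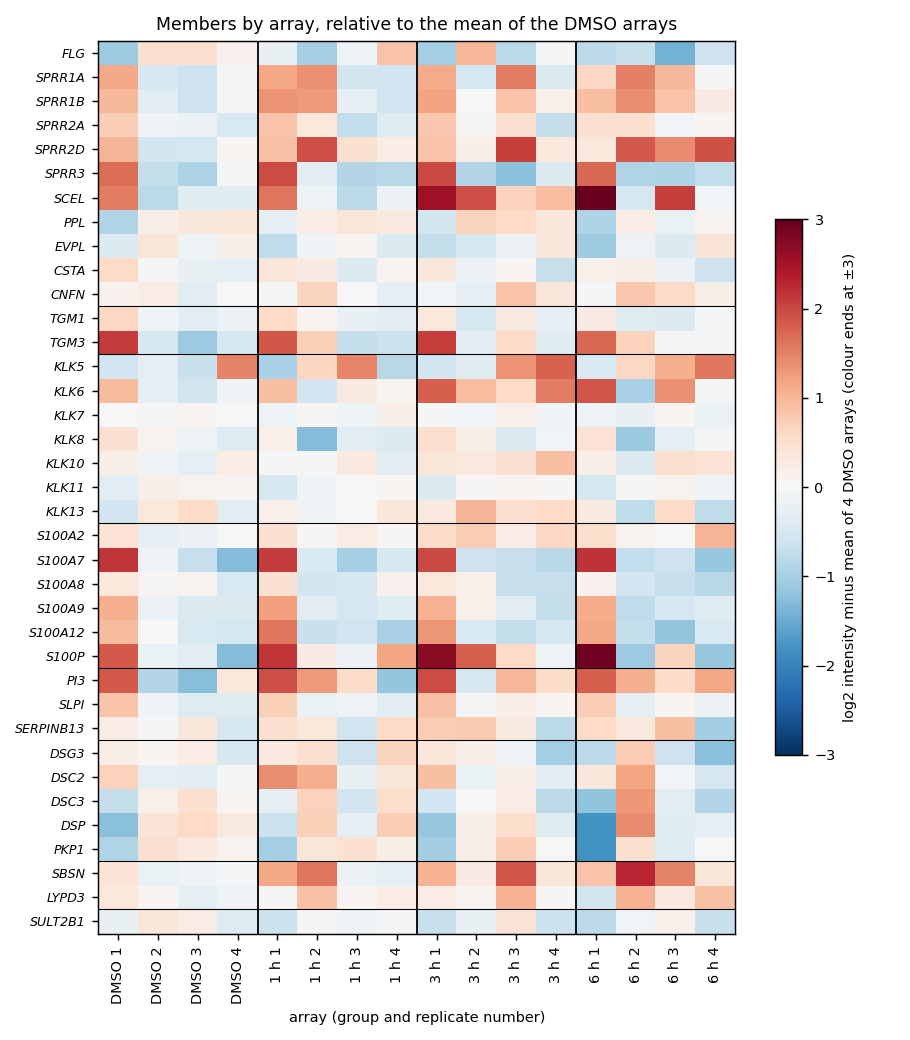
Log2 intensity of the 37 tested genes (rows, grouped by role between the horizontal lines) in the 16 arrays (columns), as the difference from the mean of the 4 DMSO arrays. Columns of 1 group differ from each other more than the group means do for SPRR1A, SPRR3, TGM3, S100A7, KLK5 and DSP.

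The spread within groups was wide even without the replicate 1 arrays. In replicates 2 to 4, 24 of the 37 genes (64.9%) had a range of at least 1 on the log2 scale inside 1 group, beside 31.2% of all features. The median of the largest within-group range was 1.15 for the 37 genes and 0.79 for all features. Over DMSO, 1 h and 3 h alone, which leaves out the arrays labelled 6 h, it was 20 of 37 (54.1%) beside 20.6%, and the largest range fell from 2.62 to 1.24 for SCEL and from 2.33 to 0.96 for KLK6. Over all groups SCEL had the largest, 2.62, in the arrays labelled 6 h, followed by PI3 with 2.46 at 1 h and KLK6 with 2.33 at 6 h. KLK11 had the smallest, 0.21. No test was made of this difference.

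A longer list of 108 other genes of epidermal differentiation, drawn up with these data known, had 67 genes that could be tested, and 0 passed in any comparison over all 16 arrays. With the replicate 1 set as a block, 3 were higher and 1 lower at 3 h, against 1.88% and 1.2% of all features, and 0 passed at 1 h and 6 h. Without 6 h replicates 2 and 4, with the block, 2 passed at 1 h, 5 at 3 h and 4 at 6 h. Of all features 1.28%, 5.05% and 2.13% did. The 4 that passed at 3 h over all 16 arrays with the block follow, with values of that fit in limma. CYSRT1, which encodes a small cysteine-rich protein of the epidermis, was higher by 2.25 (SE 0.46, adjusted p = 0.0176). EMP1, an epithelial membrane protein, was higher by 1.12 (SE 0.25, adjusted p = 0.0253), and UGCG, which makes the glucosylceramides of the epidermal barrier, by 0.98 (SE 0.22, adjusted p = 0.028). S100A4 differed by −0.85 (SE 0.20, adjusted p = 0.0312). CYSRT1 was at 9.64, 7.31, 7.17 and 7.17 in DMSO, at 10.20, 8.70, 7.97 and 7.99 at 1 h, at 11.33, 9.17, 10.28 and 9.48 at 3 h, and at 11.19, 7.71, 10.17 and 7.42 at 6 h. As for SCEL, it was high at 3 h and lower in the arrays labelled 6 h replicates 2 and 4.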

How the data were processed

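Total RNA was labelled with biotin and hybridised to Illumina arrays, per the labels' protocols. The deposited values were log2 intensities, already normalized by the authors. Limma is named, without a version, per the submitters' processing notes; how background was corrected and which log base was used is not stated there. Values up to 14.7 were read as base 2. The 32 columns of a second, non-normalized table matched no label and were not used, except for the row order of that table, in which the replicate 1 values stood 1 row low from about row 10569 of 47230. They were moved up by 1 row (r with the other arrays 0.325 before and 0.979 after the move).

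Probes reaching log2 6 in at least 4 arrays were tested, the brightest probe for each gene, giving 9651 named genes and 2816 unnamed probes. Of probes, 30113 had 1 symbol, 8 several and 17109 none; LOR was set to LORICRIN by hand. The 4 groups of 4 arrays were compared by limma 3.58.1 under R 4.3.3 (a linear model, contrasts and eBayes) with Benjamini-Hochberg adjustment at 0.05. The number of arrays limits the precision. Of the listed genes 7 had a further passing probe, and 16 of their 21 differences from DMSO had the same sign, the exceptions being in KLK8, DSC2 and DSP.

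Members and lists were chosen with earlier results of these data known. Chosen for description were any gene that passed over all arrays or with the replicate 1 set as a block (there was none) and, in each role group, the gene with the highest mean and that with the smallest p across groups. SCEL, KLK6, S100P, SLPI, KLK5, SPRR1B, SPRR3, S100A9, DSP, FLG and S100A7 were added after their values were seen, as were the genes named outside the 45. For SPRR1B, SPRR3, S100A9, DSP, FLG and S100A7 the text gives single values for only some of the arrays. The test and the row search were checked on simulated data. Alternatives changed the block, filter, normalization, variance model, array weights, probe choice and arrays.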

Additional observations from a re-analysis of the deposited data

Results flagged for a closer look

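Of 104 groups of 4 arrays over the genes chosen for description, 5 held 1 array far from the other 3. All 5 were replicate 1 arrays, which stand apart from the rest. The groups share these arrays across genes, so the 1 in 20 that chance gives in independent groups is no yardstick here. SPRR3 in 6 h replicate 1 was at 12.53, above the 9.88 to 10.08 of the other 6 h arrays. KLK11 in 3 h replicate 1 was at 13.05, below 13.5 to 13.53. S100A9 in 1 h replicate 1 was at 13.22, above 11.47 to 11.66. S100A7 in 3 h replicate 1 was at 7.86, above 5.05 to 5.25, and in 6 h replicate 1 at 8.03, above 4.75 to 5.26. Over all 37 tested genes 8 of 148 groups held such an array.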

How the results depend on the processing

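The count of listed genes that passed was 0 in each of the 5 comparisons and across the 4 groups over all 16 arrays, and stayed at 0 under the other settings listed in the methods with 1 exception. With limma's array weights 1 gene passed at 3 h (S100A2) and 1 across the groups (SPRR2D). Leaving out each array in turn gave a range of 0 to 0. Under settings added after seeing the data, each with the replicate 1 set as a block, dropping the arrays labelled 6 h replicates 2 and 4 gave 3 genes at 3 h, 2 at 6 h, 2 for 3 h against 1 h and 2 across the groups, and 0 in each without the block. Dropping 1 h replicate 2 as well gave 2 at 3 h, 2 at 6 h, 0 for 3 h against 1 h and 2 across the groups. Of 4358 fold changes of described genes under alternatives, 283 had the opposite sign of the reported value, 12 passed, and 0 passed with the opposite sign. The filter at 7 kept 34 genes, and the rows as deposited gave 39. With the replicate block 0 genes passed, while the count of all features at 3 h went from 65 to 341. Deviations of arrays with the same replicate number from their group means correlated at 0.79 to 0.90 for replicate 1 and at 0.05 to 0.62 for replicate 2. The range was −0.13 to 0.44 for replicate 3 and −0.13 to 0.70 for replicate 4, so not every pair was over 0.1. The replicate 1 offset and the arrays against their label enter these values, so they cannot decide whether replicate numbers pair the samples. Counts over all features moved more. At 3 h the count of 65 went to 0 with the rows as deposited, 15 without DMSO replicate 2 or without 3 h replicate 2, 462 with array weights, and 629 with the replicate 1 set as a block and without the 2 arrays labelled 6 h. Under those same settings with rows as deposited, array weights, and the block without those 2 arrays, the count of 71 at 1 h went to 13, 216 and 160, the count of 23 for 3 h against 1 h to 2, 46 and 239, and the count of 86 across the groups to 11, 434 and 644. At 6 h the count of 0 stayed at 0 with the rows as deposited, and went to 86 with array weights and to 266 with the block and without those 2 arrays. The replicate 1 set alone holds a single array of each group and gives no test.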
